A study of Mus musculus with 2 samples.

Results

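The nuclei described here were inhibitory neurons of the mouse thalamus dissection that carried RNA of Pax6, Otof or Cdh23. They had no UMI of Six3 and Ubash3b, used here as markers of the reticular nucleus. A nucleus belonged to the group when it had at least 2 UMIs (unique molecular identifiers, each counting 1 captured RNA molecule) of Gad1 and Gad2 together, no UMI of the glutamatergic marker Slc17a6, at least 2 UMIs of Pax6, Otof and Cdh23 together, and none of Six3 and Ubash3b. In all, 331 of the 38150 nuclei that passed the quality filter met the rule, 136 in the sham library and 195 in the injury library. The levels of these 8 genes chose the members, so they are given as a description.

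GABAergic neurons make the inhibitory transmitter GABA with the glutamate decarboxylases Gad1 and Gad2 and load it into vesicles with Slc32a1. In the thalamus of the mouse they form the reticular nucleus, which surrounds the relay nuclei, and neighbouring prethalamic groups such as the zona incerta, and a smaller number come from the midbrain. Pax6 is a paired-box transcription factor that patterns the prethalamus. Otof (otoferlin) is a calcium sensor for vesicle fusion and Cdh23 (cadherin 23) is part of the tip link of hair cells, and both are best known from the inner ear.

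Both groups were female C57BL/6J mice aged 3 months at surgery, and nuclei were taken from the ipsilateral thalamus on day 21. The injury group had cortical ablation injury, in which sensory and motor cortex of 1 hemisphere was aspirated, and the sham group had the skull opened without removal of cortex. Nuclei of 4 mice were pooled in each group before a droplet library was made, so there was 1 library per group, the spread between mice was not measured, and no test of the groups was possible. All intervals are 95% intervals that cover counting error only, and a difference between the libraries cannot be told apart from a difference between 2 preparations.

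The deposited matrices held 16390 sham and 21828 injury barcodes with 137850696 and 180106314 UMIs. Members had a median of 7806.5 UMIs and 3291 genes in the sham library and 7905 UMIs and 3273 genes in the injury library, so depth was close between the groups. The libraries shared 101 barcodes. Of these, 3 were members in the injury library, none was a member in the sham library and none was a member in both. A doublet caller marked 10 of the 136 sham members (7.35%) and 29 of the 195 injury members (14.9%), beside 12.1% and 21.6% of the other GABAergic nuclei.

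The cut-off of the rule did not fall in a gap. Among GABAergic nuclei without Six3 and Ubash3b, 95 sham and 191 injury nuclei had 1 UMI of Pax6, Otof and Cdh23 and lay just outside, while 46 and 87 had 2 UMIs and lay just inside. Zfhx4, a zinc finger homeobox gene that the rule did not use, was found in 60% and 54.5% of the nuclei just outside and in 63.0% and 52.9% of those just inside. In the nuclei with 5 or more UMIs it was found in 95.0% of 40 sham and 72.9% of 48 injury nuclei. These nuclei were deeper, with medians of 9087 and 10137 UMIs, against 7296.5 and 6853 just inside and 6347 and 6981 just outside. A further 153 sham and 237 injury nuclei carried enough Pax6, Otof and Cdh23 but also Six3 or Ubash3b, and were left out.

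Few members carried all 3 genes. Pax6, Otof and Cdh23 were found together in 8 of 136 sham members (5.88%, interval 2.57% to 11.3%) and in 13 of 195 injury members (6.67%). Otof without the other two was the most frequent state, in 33 sham members (24.3%, 17.3% to 32.4%) and 88 injury members (45.1%, 38.01% to 52.4%). Pax6 with Cdh23 but no Otof was found in 29 sham members (21.3%) and 11 injury members (5.64%). The members were therefore treated as 3 subsets set by Otof, since the mixture differed between the libraries. Members with Otof alone made up the shares just given. Members without Otof made up 54 in sham (39.7%) and 52 in injury (26.7%), and members with Otof and Pax6 or Cdh23 made up 49 (36.03%) and 55 (28.2%).

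**Figure D1:**
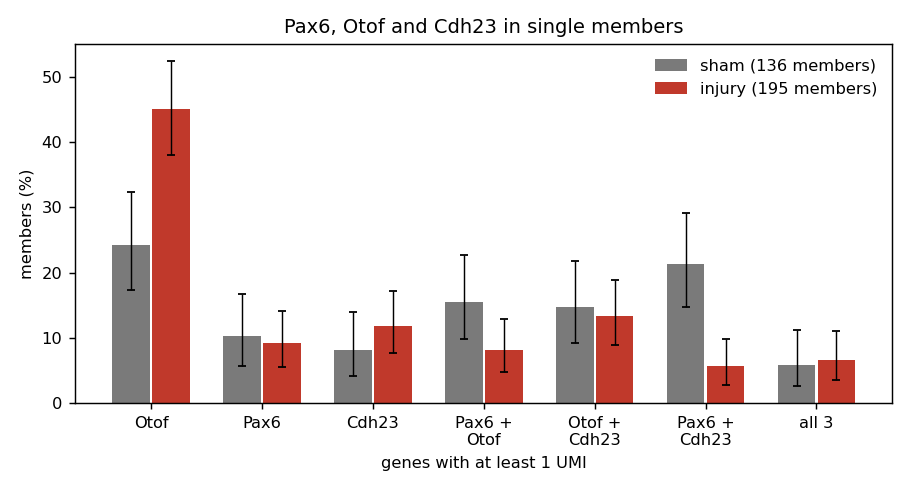
Share of members (percent, with exact 95% binomial intervals for counting error) in which each combination of Pax6, Otof and Cdh23 was found, by library. Otof alone took 24.3% of sham and 45.1% of injury members, and Pax6 with Cdh23 took 21.3% and 5.64%.

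Each member held few UMIs of these genes, so a gene that was not found in a nucleus may still be expressed there. In the sham library Pax6 was found in 52.9% of members, Otof in 60.3% and Cdh23 in 50%. In the injury library the shares were 29.7%, 73.3% and 37.4%. Oligodendrocyte nuclei, which should lack these genes, carried Pax6 in 0.122% (sham) and 0.772% (injury), Otof in 1.09% and 1.44% and Cdh23 in 0.365% and 1.13%, at a lower median depth of 1760 and 1918 UMIs. In the deeper glutamatergic nuclei, with medians of 10978 and 11895 UMIs, Pax6 was found in 1.18% and 1.24%, Otof in 5.21% and 7.60% and Cdh23 in 1.46% and 2.82%. Gad2, which makes GABA at synapses, was found in 97.1% of sham and 94.9% of injury members, as the rule required Gad1 or Gad2. Dlx6os1, a long non-coding RNA of the forebrain interneuron programme that the rule did not use, was found in 27.9% and 35.4% of members. It was found in 0.280% and 0.555% of glutamatergic nuclei and in 32.3% and 39.6% of reticular-like nuclei, so it did not set members apart from the latter.

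Cdh23 was found more often in nuclei with Pax6 than in nuclei without it, in both libraries. Among all GABAergic nuclei without Six3 and Ubash3b in the sham library, Cdh23 was found in 40.7% (30.5% to 51.5%) of the 91 nuclei with Pax6 and in 10.5% of the 488 without it. In the injury library it was found in 25.3% of 95 nuclei with Pax6 and in 7.55% of 1059 without it. After each nucleus was thinned to 2000 UMIs the same shares were 26.5% against 7.66% in sham and 20.0% against 4.30% in injury. Otof was found in 31.9% of nuclei with Pax6 against 22.3% without it in sham, and in 30.5% against 22.4% in injury. After thinning, Otof was found in 2 of 34 sham nuclei with Pax6 (5.88%, 0.720% to 19.7%), an interval that includes the 9.35% without it. In injury it was found in 10 of 45 nuclei with Pax6 (22.2%, 11.2% to 37.1%), against 9.06% without it.

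The members did not form 1 cluster. When all GABAergic nuclei were clustered on variable genes with the rule genes left out, members fell in 14 of 17 clusters, which are given by number and leading genes only. Cluster 7, led by Sfta3-ps, Esr1 and Sulf1, held 22 sham and 68 injury members, and in it Otof was the main rule gene (73.7 counts per 1000000 UMIs of the nuclei summed, CPM, against 4.47 for Pax6). Cluster 12, led by Gpc5, Gm12082 and Pappa2, held 46 sham and 33 injury members and had 55.9 CPM of Pax6, 129 of Otof and 145 of Cdh23. Cluster 2, led by Pdgfd, Mctp2 and Dach1, held 6 and 25 members and had 167, 127 and 215 CPM. Cluster 11, led by Pde11a, Etv1 and the aromatic amino acid decarboxylase Ddc, held 20 and 6 members, with little Otof (21.4 CPM). Members were fewer than the other nuclei in each of these clusters, from 46 of 125 sham nuclei of cluster 12 to 6 of 66 sham nuclei of cluster 2. The clustering depended on its random seed: over 5 seeds the fullest cluster held between 88 and 147 members.

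**Figure D2:**
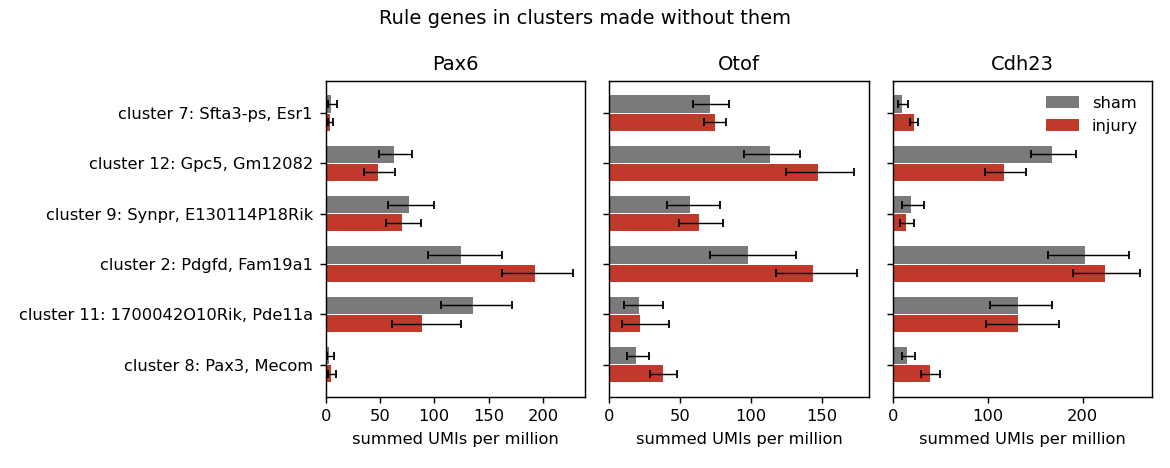
CPM of Pax6, Otof and Cdh23 (x axis, bars from 0, with exact 95% Poisson intervals for counting error) summed over all nuclei of the 6 clusters with most members, in sham and injury. Pax6 was near 0 in cluster 7 (5.28 CPM in sham, 4.20 in injury) and was at 125 and 193 CPM in cluster 2 and 136 and 89.0 CPM in cluster 11, and Otof was low in cluster 11 (21.3 and 21.6 CPM).

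Members took a like share of all nuclei in both libraries, 0.831% (0.697% to 0.982%) in sham and 0.895% (0.775% to 1.03%) in injury. As a share of GABAergic nuclei they took 9.20% (7.77% to 10.8%) of 1479 in sham and 7.45% (6.47% to 8.52%) of 2617 in injury, and these intervals overlap. The denominator itself differed: GABAergic nuclei were 9.03% of sham and 12.02% of injury nuclei, and GABAergic nuclei with Prdm16, Ano2 or Cpa6 were 0.541% of the first and 9.17% of the second. With every nucleus thinned to 2000 UMIs before the rule, members were 24 of 625 sham (3.84%) and 29 of 963 injury GABAergic nuclei (3.01%).

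Beside the rule genes, several genes had a higher level in members than in the other GABAergic nuclei of both libraries, given here as a description because the members were chosen in the same nuclei. Gm12082, a long non-coding RNA gene on chromosome 11 that lies at 28751633 to 28815767 (GRCm38), was at 43.6 CPM in sham and 35.5 CPM in injury members, against 10.1 and 8.65 CPM in the others. Gpc5 (glypican 5, a heparan sulfate proteoglycan of the cell surface) was at 1484 and 1039 CPM against 663 and 409 CPM. Gm20713 overlaps it on the opposite strand, and both levels are uncertain in that the strand setting of the counting is not given in the sources used here. Sv2b, a synaptic vesicle glycoprotein, was at 123 and 105 CPM in members. Gpc5 was found in 44.1% of sham and 44.6% of injury members, and a single sham nucleus held 203 of its 1737 sham UMIs. It was found in 45.0% and 46.0% of the deeper glutamatergic nuclei. Gm12082, Gpc5 and Gm20713 are leading genes of cluster 12, which held 46 of the 136 sham and 33 of the 195 injury members, so they describe a part of the members.

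The design asks how these neurons differed between the injury and the sham group at day 21. UMIs were summed over the members of each library and given as CPM, and a gene was called higher or lower when the 2 sums differed by at least 1.5-fold among the 7686 genes with at least 50 UMIs in all. Of these, 411 (5.35%) were higher and 350 (4.55%) were lower in the injury library, and 276 (3.59%) and 235 (3.06%) also had a counting interval that left out no difference. The median log2 ratio of injury over sham was −0.01. In the reticular-like GABAergic nuclei, which had at least 2 UMIs of Six3 and Ubash3b and none of Pax6, Otof and Cdh23, 3.21% were higher and 3.86% lower of 11835 genes, at a larger number of nuclei. These shares are the background for every count of genes past 1.5-fold below. By the interval alone, 562 genes (7.31%) lay above 0 and 570 (7.42%) below 0, which is the background for counts by interval. In the subsets, with fewer genes and fewer nuclei, 7.43% were higher and 6.82% lower for Otof alone, 5.69% and 6.06% for members without Otof, and 6.44% and 4.9% for Otof with Pax6 or Cdh23.

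**Figure D3:**
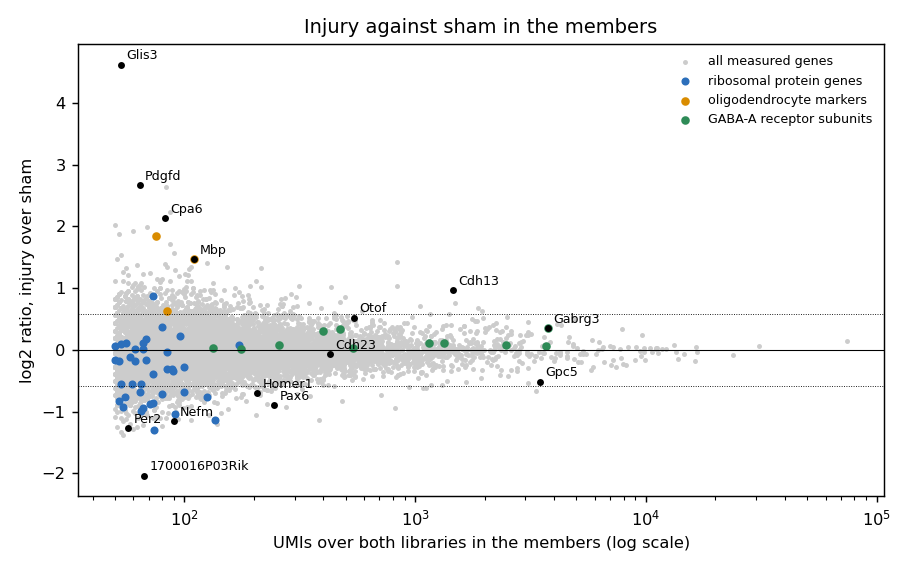
Log2 ratio of injury over sham in members (y axis, prior of 0.5 UMI) against the UMIs of each gene over both libraries (x axis, log scale), with 3 gene lists in colour, named genes in black and dotted lines at 1.5-fold. The scatter narrows as UMIs increase, Cdh13 (0.97) stands apart among genes with over 1000 UMIs, and 1700016P03Rik (−2.06 without the prior) is the lowest of the genes drawn, all of which had at least 50 UMIs.

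Among the genes of the rule, Pax6 was at 119 CPM (99.9 to 140, 139 UMIs) in sham and at 63.7 CPM (52.2 to 77.1, 106 UMIs) in injury members, a log2 ratio of −0.90 (−1.28 to −0.52). The share of members with Otof alone, which by definition hold no Pax6, differed between the libraries as given above, and the rule and the subsets use Pax6 itself. Summed over all nuclei of cluster 2, members or not, the Pax6 ratio was 0.63 (0.17 to 1.10). In clusters 7, 12, 9, 11 and 8 it lay between −0.61 and 0.78, with intervals that included 0, so no cluster had an interval below 0. Otof was at 152 CPM in sham and 219 CPM in injury (0.52, 0.26 to 0.79). Cdh23 was at 155 and 147 CPM (−0.07, −0.35 to 0.21). Gad2 was at 382 and 334 CPM (−0.20) and Gad1 at 132 and 152 CPM (0.21). Dlx6os1 was at 36.7 CPM in sham and 73.9 CPM in injury, a log2 ratio of 1.01 (0.50 to 1.54) that was above 0 in all 3 subsets (1.14, 0.66 and 1.31) and was 0.76 in the reticular-like nuclei. Summed over all nuclei of a cluster, members or not, the Dlx6os1 ratio was 0.35 (0.08 to 0.64) in cluster 7. In clusters 12, 9, 2, 11 and 8 it lay between −0.12 and 0.04, with intervals that included 0.

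The lowest summed ratio of a gene list was that of immediate early genes, which are switched on within minutes by calcium entry and neuronal activity. Summed over the 20 genes of the list, members held 275 UMIs (235 CPM) in sham and 177 UMIs (106 CPM) in injury, a log2 ratio of −1.14 (−1.42 to −0.87). The list was chosen with earlier results of these data known. Only 1 of its genes, Homer1, reached 50 UMIs. Homer1, a scaffold of metabotropic glutamate receptors with a short form that activity induces, was at 94.0 CPM (110 UMIs) in sham and 57.7 CPM (96 UMIs) in injury members (−0.70, −1.11 to −0.30), beside 0.06 in reticular-like nuclei.

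The remaining immediate early genes had few UMIs each. Egr1, a zinc finger transcription factor, had 19 sham UMIs and 0 injury UMIs. With the injury count set to a floor of 3 UMIs, it was 9.005-fold lower. Values against this floor leave out the counting error of the other library. Fos, the AP-1 subunit, had 11 UMIs in 7 sham members and 0 UMIs in injury members, and was 5.21-fold lower by the same floor. Reticular-like nuclei carried Fos in 3.18% (sham) and 0.645% (injury), and glutamatergic nuclei in 4.82% and 1.94%. Bdnf, a neurotrophin, had 19 and 5 UMIs (−2.43, −4.21 to −0.96). Junb, another AP-1 subunit, had 12 and 3 UMIs (−2.51), and Nr4a1, an orphan nuclear receptor, had 22 and 14 UMIs (−1.16, −2.24 to −0.13). The intervals of Npas4 (15 and 12 UMIs) and Jun (14 and 13 UMIs) included 0. With a minimum of 10 UMIs over both libraries, set after the values were seen, 11 of 12 genes of the list had a lower CPM in the injury library, beside 49.8% of all 13050 genes with that minimum. The exception was Nr4a2, with 4 and 10 UMIs.

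A small number of nuclei weighed on these sums. The 5 sham members with most immediate early UMIs held 80 of the 275 UMIs (29.1%), and 1 nucleus held 34, while no injury member held more than 4. With the list UMIs of the 5 highest nuclei of each library left out, and the library totals unchanged, the ratio was −0.82 (−1.13 to −0.51). Within the subsets the full ratio was −0.85 for Otof alone, −0.90 for members without Otof and −1.40 for Otof with Pax6 or Cdh23. The list UMIs of the 5 highest nuclei of each library and subset were then left out in the same way. The interval included 0 for Otof alone (−0.26, −0.95 to 0.45) and for members without Otof (−0.38, −1.005 to 0.23). The ratio was −0.97 (−1.65 to −0.31) for the remaining one. For Otof alone these 5 nuclei came from 33 in sham and from 88 in injury. With Homer1 left out, 46.3% (37.7% to 55.1%) of sham and 29.2% (22.95% to 36.2%) of injury members had any UMI of the list. The same shares were 42.7% and 38.3% in reticular-like nuclei and 60.8% and 58.8% in glutamatergic nuclei. Without Homer1 the summed ratio was −1.53 in members, −0.45 in reticular-like and −0.38 in glutamatergic nuclei, and with it −0.14 in reticular-like and −0.29 in glutamatergic nuclei.

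**Figure D4:**
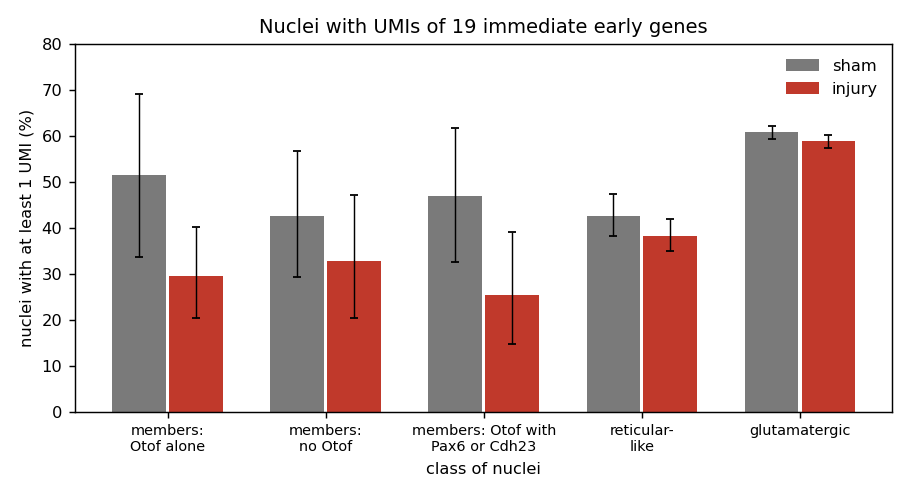
Share of nuclei (percent, bars from 0, with exact 95% binomial intervals for counting error) with at least 1 UMI of the 19 immediate early genes other than Homer1, for the 3 subsets of members, reticular-like and glutamatergic nuclei in each library. The sham bar is above the injury bar in each class, at 51.5% and 29.5% for Otof alone, with intervals that overlap in all 3 subsets of members.

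Many immediate early promoters hold the core of the cyclic AMP response element, to which the activity-dependent factor CREB binds, and the promoters of Nr4a1 and Homer1 are shown as examples with several matches, from genes with intervals below 0 in members. Bdnf and Junb, with intervals below 0 too, had at most 1 match in a window. The motif CGTCA was searched on both strands (TGACG on the other) in the 250 bases before RefSeq start sites of GRCm38.p6. The windows of 1 chromosome were left out before the search. It was found in 5836 of 32851 windows (17.8%). By gene, 5347 of 27025 (19.8%) had it in at least 1 window. Of the 20 list genes 16 had a window, some more than 1, and 13 of these had the motif in at least 1 window, while Fosl2, Ier5 and Jun had none. Egr1, Egr3, Arc and Ier2 had no window among those searched. Capitals mark the motif.
Nr4a1 chr15:101266596-101266845, plus strand: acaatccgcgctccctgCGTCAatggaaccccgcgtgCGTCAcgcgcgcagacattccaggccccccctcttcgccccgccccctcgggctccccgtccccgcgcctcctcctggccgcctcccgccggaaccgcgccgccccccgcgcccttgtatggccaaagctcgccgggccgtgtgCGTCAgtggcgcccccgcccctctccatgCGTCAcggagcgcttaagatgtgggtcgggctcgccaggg
Homer1 chr13:93303507-93303756, plus strand: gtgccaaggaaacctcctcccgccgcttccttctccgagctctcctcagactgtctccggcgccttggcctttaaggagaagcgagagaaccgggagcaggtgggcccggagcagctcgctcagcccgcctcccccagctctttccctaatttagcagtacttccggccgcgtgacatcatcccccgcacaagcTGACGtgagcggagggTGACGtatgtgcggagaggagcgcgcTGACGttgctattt
The Nr4a1 window held 4 matches and the Homer1 window shown 3, while a second Homer1 window, chr13:93307784-93308033, held 0. A match is a description of the letters and no measurement of binding.

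Transcription factors of the prethalamus and forebrain set the identity of these neurons, and most of those measured differed by less than 1.5-fold. Of 35 listed genes 20 were measured, of which 3 were at least 1.5-fold higher, 2 were lower, among them the rule gene Pax6, and the median log2 ratio was −0.00. The background was 5.35% higher and 4.55% lower. By interval 4 of the 20 lay above 0 and 4 below 0, beside 7.31% and 7.42% of all measured genes. Nr2f2, an orphan nuclear receptor of interneuron lineages, was at 23.9 CPM in sham and 43.9 CPM in injury (0.87, 0.23 to 1.56). It was 2.64 in members with Otof alone, −0.70 in members without Otof, 0.45 (−0.75 to 1.70) in members with Otof and Pax6 or Cdh23 and −0.22 in reticular-like nuclei. Isl1, a LIM homeobox factor, was at 14.5 and 26.4 CPM (0.86, 0.03 to 1.76). Meis1, a TALE homeobox factor, was at 42.7 and 19.8 CPM (−1.11, −1.79 to −0.44), and was 0.19 in members with Otof alone and 0.63 in the fullest cluster. Esr1, the oestrogen receptor alpha, was at 28.2 and 72.1 CPM (1.35, 0.79 to 1.96). It led cluster 7, which held more injury than sham members. Esr1 and Isl1 were 2 of the 3 measured genes on the list of reticular nucleus markers (the other was the rule gene Gad2), but Esr1 was found in 7.86% and 5.81% of reticular-like nuclei against 16.2% and 27.2% of members, so it did not mark the reticular-like nuclei here. Of 16 midbrain and thalamic factors 3 were measured and 2 were lower, and the summed ratio was −0.14 (−0.44 to 0.15). Among them was Ebf1, a helix-loop-helix factor with 50 and 38 UMIs (−0.90, −1.55 to −0.27), for which 1 sham nucleus held 19 UMIs. Its ratio was −4.56 for Otof alone, 1.24 without Otof and 1.26 (0.10 to 2.56) with Otof and Pax6 or Cdh23.

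Genes of GABA synthesis and transport were close, with 1 of 7 measured genes higher (the GABA transporter Slc6a11, 24 and 52 UMIs, 0.61, −0.12 to 1.37), none lower and a median of 0.01. Slc6a11 turned to −0.14 with at least 4 UMIs of Gad1 and Gad2 and to −1.25 with at least 2 UMIs of Cdh23. The list includes Gad1 and Gad2, whose levels chose the members. Peptides, calcium-binding proteins and amine enzymes were mostly too low to measure: 4 of 36 were measured and 1, Ddc, was lower (24.8 and 16.2 CPM, −0.61, −1.42 to 0.20). Ddc turned to 0.077 with at least 3 UMIs of Pax6, Otof and Cdh23. It was 0.053 with at least 4 UMIs of Gad1 and Gad2 and 0.63 with at least 2 UMIs of Cdh23. Of 39 hair cell genes 6 were measured, including the rule genes Otof and Cdh23, and none passed 1.5-fold. Pcdh15, the partner of Cdh23 in the tip link, was found in 98.5% of sham and 93.8% of injury members (−0.20, −0.29 to −0.12).

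Receptors for GABA and glutamate differed by less than 1.5-fold with few exceptions. None of 11 measured GABA-A subunits passed, although 3 had intervals above 0 and the summed ratio was 0.17 (0.12 to 0.22), beside 0.04 in reticular-like nuclei. Gabrg3, a gamma subunit, was at 1136 CPM in sham and 1452 CPM in injury members (0.35, 0.26 to 0.45). None of 16 ionotropic glutamate receptor subunits passed. Grik1, a kainate receptor subunit, was at 385 and 574 CPM (0.58, 0.42 to 0.74), and at 0.32 in reticular-like nuclei. In the 3 subsets it was 0.50, 0.81 and 0.05, so it was near 0 in members with Otof and Pax6 or Cdh23. Gria1, an AMPA receptor subunit, was at 742 and 961 CPM (0.37), and at 1.29 in reticular-like nuclei. Grm5, the group I metabotropic receptor that Homer1 binds, was at 1266 and 1672 CPM (0.40, 0.31 to 0.49), while Grm7 of group III was at 2318 and 1902 CPM (−0.28, −0.36 to −0.21). Of 8 measured metabotropic and GABA-B receptors none was higher and 1, Grm4, was lower (−0.72, −1.38 to −0.06), though at 0.32 with members thinned to 2000 UMIs.

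Most ion channel genes likewise differed by less than 1.5-fold. Of 25 calcium, sodium and HCN subunits 1 was higher and 2 were lower, and of 31 potassium channel subunits 1 was higher. By interval 6 of the 25 lay above 0 and 3 below 0, and 5 of the 31 lay above 0 and 4 below 0. The background by interval was 7.31% above and 7.42% below 0. Cacna2d1, an auxiliary calcium channel subunit, was at 76.9 and 119 CPM (0.63, 0.26 to 1.01), beside 0.65 in reticular-like nuclei, but was −0.17 in members outside the fullest cluster. Its relative Cacna2d3 was at 808 and 589 CPM (−0.46), and at 0.21 in the members of that cluster. Kcnh8, an ether-a-go-go type potassium channel, was at 38.5 and 71.5 CPM (0.90, 0.39 to 1.42). A single injury nucleus held 18 of the 119 Kcnh8 UMIs. Dpp10, which modulates A-type potassium channels, was at 1406 and 1955 CPM (0.48), but 1 injury nucleus held 211 of its 3252 UMIs and the ratio was −0.06 in members with Otof and Pax6 or Cdh23.

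Of 61 neuromodulator receptors 15 were measured, 1 was higher and 1 lower. Htr2c, the serotonin 2C receptor, was at 578 CPM in sham and 700 CPM in injury members (0.28, 0.14 to 0.42), between 0.22 and 0.33 in the subsets, −0.22 in the members of the fullest cluster and −0.39 in reticular-like nuclei. Tacr1, the substance P receptor, was at 21.4 and 35.5 CPM (0.73, 0.03 to 1.47) with 1 nucleus at 12 of the 59 injury UMIs, and turned to −0.57 in nuclei with 2 UMIs of Cdh23 and to −0.31 in the fullest cluster. Of 32 measured vesicle release genes, the rule gene Otof included, 2 were higher and 1 was lower, and of 17 inhibitory synapse adhesion and scaffold genes 1 was higher.

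Adhesion and guidance genes held 1 of the larger differences among abundant genes. Cdh13, a cadherin anchored to the membrane by a lipid, was at 329 CPM (385 UMIs) in sham and 643 CPM (1070 UMIs) in injury members. Its log2 ratio was 0.97 (0.80 to 1.14), was 1.03, 1.34 and 0.37 in the subsets and was 0.16 in reticular-like nuclei. It was the only 1 of 24 measured cadherins and protocadherins, the rule gene Cdh23 among them, that passed 1.5-fold. By interval 3 of the list, Cdh13 included, lay above 0 and 6 below 0, such as Cdh8 (959 and 720 CPM, −0.41). Of 31 measured guidance genes 1 was higher and 2 lower. Sema6a, a transmembrane semaphorin, was at 72.6 and 132 CPM (0.86, 0.49 to 1.24), though not in members with Otof and Pax6 or Cdh23 (−0.38). Sema5a was at 144 and 93.2 CPM (−0.63, −0.96 to −0.31) and Epha4, an ephrin receptor, at 109 and 70.9 CPM (−0.63, −0.998 to −0.25). Both were below 0 in all 3 subsets and above 0 in reticular-like nuclei (0.33 and 0.25).

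**Figure D5:**
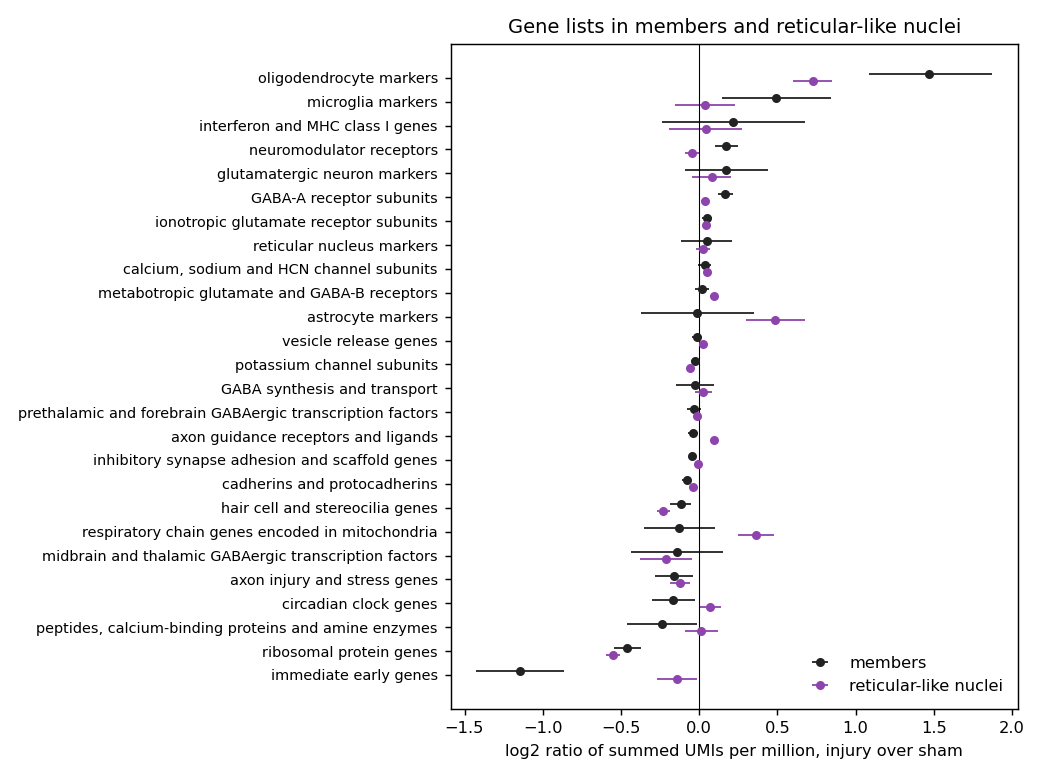
Log2 ratio of injury over sham of the summed UMIs of each gene list (points, with 95% counting intervals) in members and in reticular-like nuclei. Immediate early genes lie lowest in members at −1.14, oligodendrocyte markers highest of the lists drawn at 1.47 (the lists of oligodendrocyte precursor and Prdm16, Ano2 and Cpa6 markers, with higher sums, are not drawn), and ribosomal protein genes lie below 0 in both classes (−0.46 and −0.55).

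Ribosomal protein genes were lower in the injury library as a group. Of 83 genes 39 were measured, 14 were at least 1.5-fold lower and 1 was higher, and the median log2 ratio was −0.31. The summed ratio was −0.46 (−0.55 to −0.37) in members, −0.55 in reticular-like nuclei, −0.44 in glutamatergic nuclei and −0.44 (−0.49 to −0.39) in oligodendrocyte nuclei, so the same direction was measured in all 4 classes compared. Rpl9 was at 40.2 and 16.2 CPM (−1.31, −2.05 to −0.60). None of the 4 measured mitochondrially encoded respiratory genes passed 1.5-fold.

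Among genes with at least 50 UMIs the lowest ratio was that of 1700016P03Rik, the host transcript of the microRNAs Mir212 and Mir132 on chromosome 11. It was at 42.7 CPM (50 UMIs) in sham and 10.2 CPM (17 UMIs) in injury members (−2.06, −2.95 to −1.25). It was below 0 in all 3 subsets and in reticular-like (−0.997) and glutamatergic nuclei (−1.08). The 12 lowest genes also held Atp5g1, a subunit of ATP synthase (33.3 and 13.8 CPM, −1.27), Cox6c, a subunit of cytochrome c oxidase (42.7 and 18.0 CPM, −1.24), and the actin gene Actb (35.0 and 15.03 CPM, −1.22). These also lay below 0 in reticular-like nuclei (−0.41, −0.50 and −0.61). Ptp4a2, a tyrosine phosphatase, was at 73.5 and 31.9 CPM (−1.21, −1.73 to −0.70) in members and at 0.01 in reticular-like nuclei.

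Clock and stress genes were few. Of 11 measured clock genes Per2 was lower (30.8 and 12.6 CPM, −1.29, −2.14 to −0.47) and Cry2 was higher (35.9 and 55.9 CPM, 0.64, 0.10 to 1.20). Per2 was below 0 in all 3 subsets and was 0.08 in reticular-like nuclei. Of 10 measured axon injury and stress genes, Nefm, a neurofilament subunit, was lower (47.0 and 21.0 CPM, −1.16, −1.81 to −0.52) and Sgk1, a kinase induced by glucocorticoids, was higher (62.4 and 94.4 CPM, 0.60, 0.19 to 1.02), though at −0.24 in the fullest cluster. Gap43, a growth cone protein, was at 247 and 239 CPM (−0.05). Only 1 of 22 interferon and MHC class I genes was measured and it did not pass.

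The largest differences upward differed in how many nuclei carried them. Glis3, a zinc finger factor, had 1 UMI in 1 sham member and 52 UMIs in 14 injury members, with a ratio of 5.19 (2.65 to 10.5) on the log2 scale. Pdgfd, a growth factor that leads cluster 2, had 6 and 58 UMIs (2.77, 1.56 to 4.27), and Cpa6, a carboxypeptidase, had 11 and 71 UMIs (2.18). Cpa6 is a leading gene of cluster 17, which held 0 sham and 263 injury nuclei, 5 of them members. Gda (guanine deaminase) and Nek10 (a NIMA-related kinase) were found in more nuclei than Glis3, Pdgfd and Cpa6, though Gda was at −0.40 in the nuclei with at least 2 UMIs of Pax6 itself. Gda had 8 UMIs in 8 sham members and 75 UMIs in 35 injury members (2.72, 1.67 to 3.98). Nek10 had 11 UMIs in 8 sham and 76 UMIs in 39 injury members (2.28, 1.36 to 3.34), above 0 in all 3 subsets (2.58, 1.91 and 1.82) and at 1.16 in reticular-like nuclei.

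RNA of other cell types differed between the libraries too. Oligodendrocyte markers summed to 59.0 CPM (69 UMIs) in sham and 163 CPM (272 UMIs) in injury members, a log2 ratio of 1.47 (1.09 to 1.87), and all 3 measured of the 10 genes were higher, Mbp among them (22 and 88 UMIs). At least 1 UMI was found in 39.0% of sham and 47.7% of injury members, and 5 injury nuclei held 107 of the 272 UMIs. With the marker UMIs of the 5 highest nuclei of each library left out, and the library totals unchanged, the ratio was 1.001. The full ratio was 2.08 in members with Otof alone, 1.38 (0.58 to 2.23) in members without Otof and 0.07 in those with Otof and Pax6 or Cdh23, and it was 0.73 in reticular-like and 0.97 in glutamatergic nuclei. Ubash3b, which members lacked by the rule, was found in 43.5% of sham and 48.2% of injury oligodendrocyte nuclei. Reticular-like nuclei carried it in 99.8% and 98.3%, and held 175 and 290 CPM of oligodendrocyte markers. The part of this selection in the comparison was not tested. Mag, a myelin gene, had 0 and 16 UMIs, 3.75-fold higher with the sham count set to the floor and counting error left out. Microglia markers summed to 105 and 210 UMIs (0.49, 0.15 to 0.84), most of them from P2ry12 (67 and 149 UMIs), which lies inside Med12l on the other strand, while C1qa had 0 and 2 UMIs. Astrocyte markers summed to 112 and 158 UMIs (−0.01), oligodendrocyte precursor markers to 1 and 14, endothelial, mural and ependymal markers to 6 and 19, and glutamatergic markers to 189 and 303 (0.17). The markers Prdm16, Ano2 and Cpa6 summed to 18 and 123 UMIs (2.26, 1.54 to 3.07), with 18 of the 31 injury UMIs of Ano2 in 1 nucleus. The summed ratio was 0.51 (−0.64 to 1.85) for Otof alone, 4.35 for members without Otof, 2.27 for the remaining subset and 2.24 in reticular-like nuclei. Cluster 14, led by Prr5l, Mobp and Mog, held 0 sham and 3 injury members. Cluster 15, led by Vcan, Sox6 and Epn2, held 0 and 2. The part of these other cells in the results above was not tested.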

How the data were processed

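The authors aligned droplet libraries (10x 3′) with Cell Ranger 6.0.2 to mm10, and the deposited files hold raw UMI counts for 32285 genes per barcode, per the labels and methods. Whether intronic reads were counted is not given in the sources used here. Nuclei with 200 to 7500 genes and at most 2% mitochondrial UMIs were kept. UMIs were summed over members per library and divided by the members' total (CPM). Intervals were exact Poisson for sums, Clopper-Pearson for shares and conditional binomial for ratios, at 95%. They cover counting error only. With 1 library per group no count model was fitted, so no p-value is given.

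Genes with at least 50 UMIs over both libraries were measured, and calls used 1.5-fold with a prior of 0.5 UMI. Named genes were those of the rule, the 12 largest differences in each direction with an interval that left out 0, up to 5 of the highest and 4 of the most different genes per list, and up to 15 genes highest in members (10 met the rule, 3 of them rule genes). Immediate early genes below 50 UMIs, the nuclear receptor Nr4a2, and Slc6a11, C1qa, Mag, Ano2 and Prdm16 with low counts were named in addition after their values were seen. The members and the 29 gene lists were chosen with earlier results of these data known. GABAergic nuclei were clustered with scanpy 1.11.5 (Leiden, resolution 0.5, 2000 variable genes, 30 components, rule genes left out). Doublets were the nuclei with the highest Scrublet scores, as many as a rate of 0.8% per 1000 nuclei gives, which makes the called share higher in the larger library, and they were kept. Python 3.11.15, numpy 2.4.6, scipy 1.17.1 and pandas 2.3.3 were used, with edgeR 4.0.16 and DESeq2 1.42.0 for scaling factors alone. Ratio calls were also run on simulated counts with counting error alone, and the outcome is not given here. Alternatives changed the rule, the filters, the scaling, doublets and depth. Results for a few genes are not reported here.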

Additional observations from a re-analysis of the deposited data

Results flagged for a closer look

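Of 159 measured genes that the rule for named genes chose, other than the rule genes themselves, 60 had intervals without 0 in both members and reticular-like GABAergic nuclei. For 11 of these the log2 ratio of injury over sham had an interval on one side of 0 in members and on the other side in reticular-like nuclei. The difference between the classes was not tested, since each class had 1 library per group. Some of the named genes were chosen for an interval without 0 in members. The same counts over all measured genes are not given here, so the 60 and the 11 stand without a background. Ratios above 0 in members were 0.87 for Nr2f2 (−0.22 in reticular-like nuclei), 0.34 for Gabra3 (−0.13), 0.48 for Dpp10 (−0.08) and 0.28 for Htr2c (−0.39). Ratios below 0 in members were −0.18 for Rora (0.07), −0.42 for Grik3 (0.14), −0.28 for Grm7 (0.17), −0.57 for Sv2c (0.43), −0.63 for Sema5a (0.33), −0.63 for Epha4 (0.25) and −0.57 for Epha7 (0.11). For Nr2f2 the ratio was −0.70 in members without Otof, for Gabra3 it was −0.16 there, for Sv2c it was 0.10 there, and in members with Otof and Pax6 or Cdh23 it was 0.10 for Grik3 and −0.06 for Dpp10, so these 5 signs did not hold in every subset.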

How the results depend on the processing

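No paired analysis was possible because there was 1 library of pooled mice on each side, and leaving out a replicate would leave a group empty. Of 1127 values of single genes under the alternatives, 907 stayed inside the counting interval first obtained and 1070 kept their sign. Among the values that changed sign, 41 were at least 1.5-fold or had an interval that left out 0 at first. The cause of these changes was not tested. Other scalings changed the injury over sham scaling factor by −0.02 (TMM) and −0.01 (median of ratios) on the log2 scale. A lower injury factor raises the log2 ratios of genes by the same amount.

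The numbers of genes higher and lower differed between the settings. They were 38 and 29 with at least 200 UMIs, 2368 and 2144 for genes with 1 UMI in each library, and 144 and 123 with members thinned to 2000 UMIs. They were 189 and 185 for at least 2 UMIs of Pax6 itself, and 194 and 186 for at least 2 of Cdh23 itself. Members as a percent of GABAergic nuclei (sham, then injury) were 6.09 and 4.13 with 3 UMIs of the 3 genes, 3.11 and 1.30 with 2 of Pax6, 3.72 and 4.39 with 2 of Otof, so that the order turned, 3.25 and 2.03 with 2 of Cdh23, and 3.84 and 3.01 after thinning. In the injury library they were 6.24 with 4 UMIs of Gad1 and Gad2 and 6.34 without called doublets. The summed immediate early ratio stayed below 0 in all 17 alternatives, at −1.53 with 4 Gad UMIs, −0.80 with 2 of Pax6, −1.58 with 2 of Cdh23 and −0.85 for Otof alone. The summed oligodendrocyte ratio stayed above 0 in all 17, at 0.42 with 3 UMIs of the 3 genes, 0.76 with 2 of Pax6, 0.51 with 2 of Cdh23, 0.91 without called doublets, 0.84 in the fullest cluster, 0.68 in members with Pax6 or Cdh23, 2.08 for Otof alone and 0.92 in members without UMIs of 5 myelin genes.

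These, and 3 values of gene lists, changed sign as follows. With 2 UMIs of Pax6 it was 0.14 for Pax6 (a value the selection itself shapes), 0.071 for Gpc5, −0.18 for Gabra3, −0.20 for Dpp10, 0.031 for Pcdh15 and −0.40 for Gda. With 2 UMIs of Cdh23 it was 0.32 for Gm20713, −0.57 for Tacr1, 0.11 for Pcdh15, 0.63 for Ddc and −1.25 for Slc6a11. With 4 Gad UMIs it was 0.053 for Ddc, 0.29 for Jun and −0.14 for Slc6a11. With 3 UMIs of the 3 genes it was 0.077 for Ddc. With thinned members it was 0.051 for Gm20713 and 0.32 for Grm4. Prdm16 was at −0.093 with 2 UMIs of Otof and −0.53 in members without myelin UMIs. In the fullest cluster the median of cadherins was 0.034 and the sum of neuromodulator receptors −0.25, with −0.17 for Otof, 0.17 for Gpc5, 1.34 for Gm20713, 0.63 for Meis1, 0.71 for Grik3, 0.21 for Cacna2d3, −0.22 for Htr2c, −0.31 for Tacr1, −0.24 for Sgk1, 0.63 for Jun and −0.95 for Prdm16. The subsets by Otof, at equal weights, outside the fullest cluster and without myelin UMIs were chosen after seeing the data. Ebf1 turned from −0.90 to 2.18 with 2 UMIs of Pax6, 2.24 with 2 of Cdh23, 0.63 with 4 Gad UMIs and 1.29 in members with Pax6 or Cdh23. Outside the fullest cluster Cacna2d1 was at −0.17 and Dpp10 at −0.025. For Otof alone the median of cadherins was 0.13, Meis1 0.19 and Prdm16 −1.39. In members with Pax6 or Cdh23, Gm20713 was at 0.36, Nr2f2 at −0.053 and Pcdh15 at 0.027.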
